A study of Danio rerio with 12 samples.

Results

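The genes described here make, salvage and break down purines, or turn the purine nucleotide GTP into pteridines. They were gch2, pts, xdh, uox, pnp4a, ppat, gart, paics, adsl and atic, listed by their known place in these pathways. The list was drawn up with earlier results of these arrays known. Counts of its genes called, set beside the share of all genes, are therefore a description. Probes were found through the accession printed for each probe, and where a gene had several probes, 1 was chosen by its mean log2 intensity over the 12 arrays, the highest being taken. Of the 10 genes, 9 were found among 10914 named genes. The xdh probe carries a transcript identifier that was paired with xdh through the annotation supplied with the study, and atic, which catalyzes the last steps of de novo synthesis of the purine nucleotide IMP, was not analysed here. The intensity that chose a probe is not a comparison between groups, and all 9 probes were well above background, with no saturated spot, on all 12 arrays.

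Each of the 12 arrays read total RNA of 1 pool of whole zebrafish embryos, 25 to a pool by the sample labels, and 3 pools made up each of 4 groups. Embryos at the single-cell stage received 4.4 ng, in 1 nL, of either an active morpholino (MO) directed at the translation start of the glucocorticoid receptor (GR) transcript or a mispair control (MP), and were frozen at 24 or 36 h post fertilization (hpf). The 4 groups were therefore MO and MP at 24 hpf and MO and MP at 36 hpf, and no group was left uninjected. The labels name no strain, and describe the pools of a group as independent repeats of the experiment.

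The morpholino is shown because it alone defines the MO groups. It is written 5′ to 3′, with the complement of the start codon of the receptor in capitals.
Morpholino: ctccagtcctccttgatcCATtttg
The labels print these same 25 bases for the mispair control, although they describe the control as having altered bases, and the methods print another sequence for it, which leaves the bases of the control unknown here. Blocking translation need not alter the level of the receptor mRNA, which therefore cannot show which array received the morpholino, and every direction below is that of the labels. By those labels the signs given here are opposite to the directions the study gives.

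Vertebrate cells build the purine ring step by step on ribose phosphate until IMP is formed, from which AMP and GTP are made. Purines are also recovered from nucleosides, or oxidized to uric acid, which fish degrade further. In zebrafish these pathways also supply pigment. Xanthophores, the yellow pigment cells that derive from the neural crest, make pteridines from GTP, and iridophores hold reflective purine crystals. RNA of whole embryos holds every tissue, and fewer cells of a type cannot be told apart from less RNA per cell. Markers of muscle, red cells, neurons and lens were well above background on all 12 arrays for 4 of 4, 3 of 3, 4 of 4 and 3 of 4 genes.

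Values are log2 of the intensity of a probe divided by the median, on that array, of 19114 probes that exceeded an intensity of 50 on all 12 arrays. A value of 0 is therefore an intensity equal to that median, and levels of different probes are not compared. Groups were compared with limma, and a gene is called changed where its p, adjusted by the Benjamini-Hochberg method over all genes tested, was under 0.05. One array stood apart before any comparison. MO 36 hpf replicate 2 was the dimmest, with a median intensity of 35.4 against 79.8 to 171 on the other 11, and over the genes above background on all arrays it lay nearer the mean of the MO arrays at 24 hpf (root mean square distance 0.761) than that of the other arrays of its group (0.833). For 7 of the 9 purine and pteridine genes it was nearer the MO mean at 24 hpf than the mean of the other MO arrays at 36 hpf, so results that rest on it are given with and without it. MO 36 hpf replicate 1 lay nearer the MP means at 24 hpf (0.508) and 36 hpf (0.576) than the mean of the other arrays of its group (0.586), which includes replicate 2. In every 36 hpf MO array 65.9% to 70.7% of probes were well above background, against 72.8% to 80.4% in the MP arrays of that age and 80.4% to 82.5% at 24 hpf, and the part of this in the results was not tested.

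At 24 hpf 7 of the 9 genes differed between MO and MP, 5 of them lower and 2 higher in MO. The pteridine and pigment-cell genes gch2, xdh and pnp4a were lower by 2.74- to 3.70-fold, the urate-degrading uox was 13.1-fold higher, paics was 2.31-fold higher, and gart and adsl were lower by less than 1.3-fold. ppat and pts did not pass the test. Of all 10352 genes tested at this age, 48.3% were called changed, 24.3% as higher and 24% as lower, so that 7 of 9 was read against a high background. The values of MO and MP did not overlap for 7 of the 9 genes, against 59.8% of all genes.

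At 36 hpf 3 of the 9 genes differed, against 6.39% of the 9887 genes tested (1.92% higher and 4.47% lower). uox was 18.2-fold and gart 1.85-fold higher in MO, and xdh was 3.50-fold lower. The values of MO and MP did not overlap for 7 of the 9 genes, against 29.4% of all genes. Without MO 36 hpf replicate 2, 4 of the 9 genes were called, with gch2 added, against 11.3% of all genes.

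**Figure D1:**
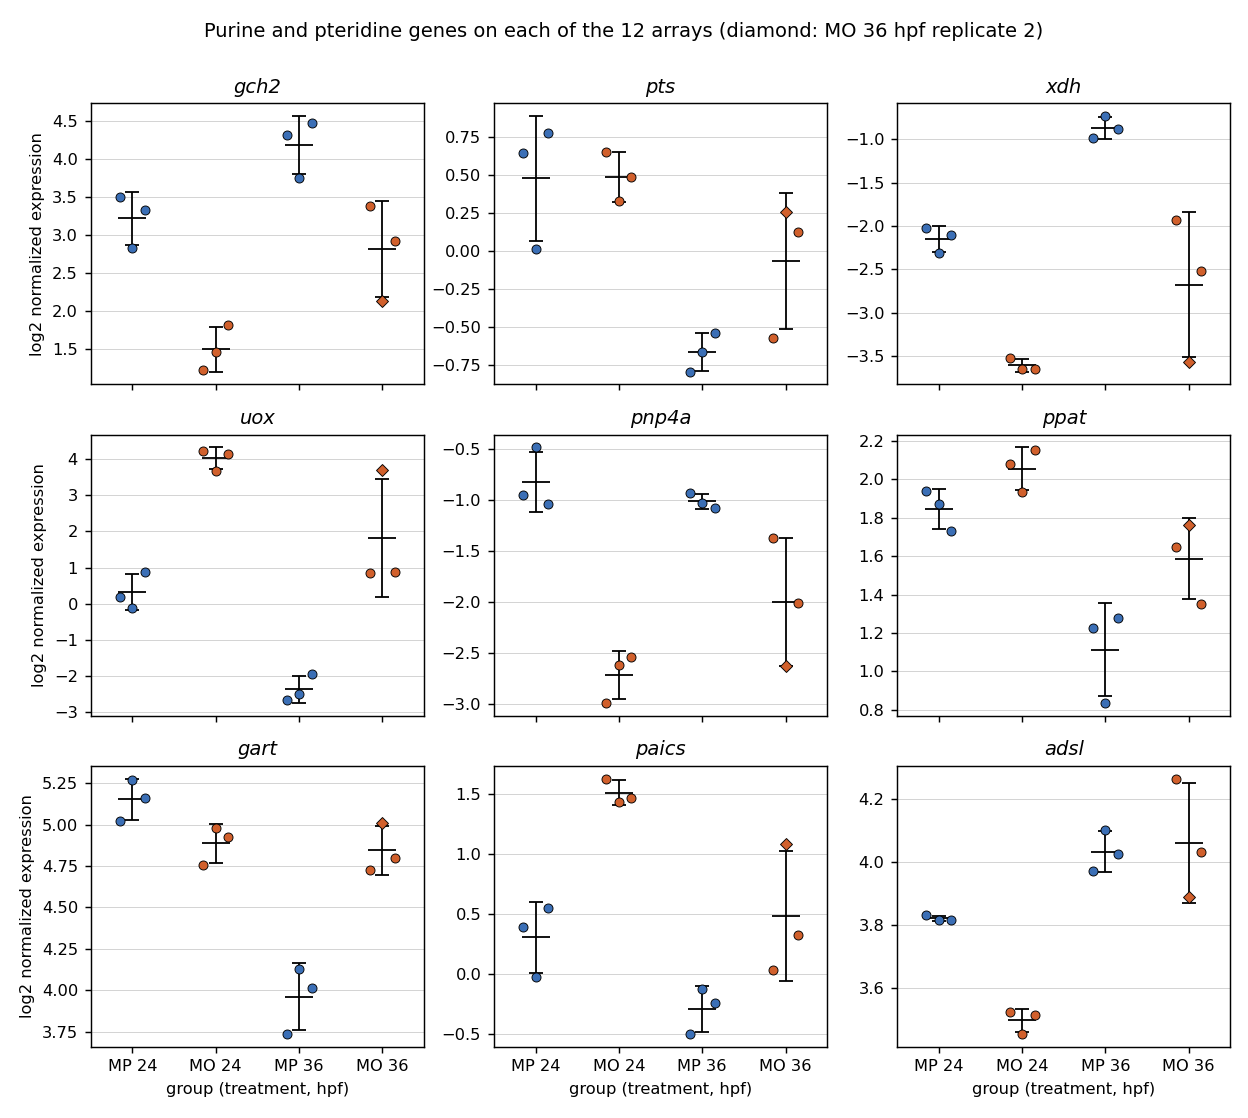
Log2 normalized expression (vertical axis, a separate range for each gene) of the 9 genes on each array, in MP (blue) and MO (orange) at 24 and 36 hpf. Points are arrays, bars are the mean ± SD of 3 arrays, and the diamond is MO 36 hpf replicate 2. In uox that array lies at 3.70, within the range of the MO arrays at 24 hpf, while the other MO arrays at 36 hpf lie at 0.84 and 0.89.

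Among the genes that act on GTP and pteridines, gch2 encodes the GTP cyclohydrolase that opens pteridine synthesis and in zebrafish is a marker of xanthophore precursors. At 24 hpf its log2 expression was 1.22, 1.46 and 1.81 in MO replicates 1 to 3, and 3.51, 2.83 and 3.33 in MP. All 3 MO arrays lay below all 3 MP arrays, and gch2 was lower in MO by 3.31-fold (log2 difference −1.73 ± 0.19 SE, n = 3 and 3, limma adjusted p = 0.00016). At 36 hpf it was 3.38, 2.13 and 2.93 in MO and 4.32, 3.75 and 4.48 in MP. The groups again did not overlap, but the difference of −1.37 ± 0.34 missed the threshold (adjusted p = 0.054), and without MO 36 hpf replicate 2 it was −1.03 ± 0.24 and passed it (adjusted p = 0.034). It also passed without MO 36 hpf replicate 1, at −1.66 (adjusted p = 0.033). Of 23 other ways of processing the arrays, 6 put it past the threshold, 1 of them the methods' t-test with no adjustment, and in the other 17 the adjusted p was 0.054 to 0.72. Ordered by mean, gch2 was highest in MP at 36 hpf, then MP at 24 hpf, MO at 36 hpf and MO at 24 hpf, and the values of MP at 24 hpf and MO at 36 hpf overlapped. A second gch2 probe differed by −1.96 at 24 hpf and −0.996 at 36 hpf, where its adjusted p over all probes was 0.15.

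pts encodes 6-pyruvoyltetrahydropterin synthase, which takes the product of GTP cyclohydrolase toward tetrahydrobiopterin. At 24 hpf it measured 0.65, 0.32 and 0.49 in MO and 0.64, 0.01 and 0.78 in MP, with the MO range inside that of MP. The difference was 0.01 ± 0.19, with an adjusted p of 0.97. At 36 hpf it measured −0.57, 0.25 and 0.12 in MO and −0.79, −0.66 and −0.54 in MP, which overlapped (0.60 ± 0.26, adjusted p = 0.24).

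xdh encodes xanthine dehydrogenase, which oxidizes hypoxanthine and xanthine to uric acid and in zebrafish is expressed in xanthophores, where it acts on pteridines. At 24 hpf it measured −3.52, −3.64 and −3.65 in MO and −2.02, −2.31 and −2.10 in MP. The MO arrays lay close together and below every MP array, with a difference of −1.46 ± 0.13 (adjusted p = 5.8e-05). At 36 hpf it measured −1.93, −3.57 and −2.52 in MO and −0.99, −0.74 and −0.88 in MP. All MO arrays were again lower, by −1.81 ± 0.40 (adjusted p = 0.042), and without MO 36 hpf replicate 2, the lowest of them, by −1.36 ± 0.24 (adjusted p = 0.014). Leaving out MO 36 hpf replicate 3 or any MP array at 36 hpf put the adjusted p at 0.11 to 0.15, and the slide as a block put it at 0.067. The fits lacking 1 of these arrays called 19 to 94 of all genes, against 632 in the main fit. The order of the means was that of gch2, and the values of MP at 24 hpf and MO at 36 hpf overlapped.

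Of the genes of purine salvage and breakdown, pnp4a encodes a purine nucleoside phosphorylase that is used as an iridophore marker in zebrafish. In the younger embryos it measured −2.99, −2.62 and −2.54 in MO and −0.95, −0.49 and −1.04 in MP. The groups were separated by more than 1 log2 unit, and pnp4a was lower in MO by 3.70-fold (−1.89 ± 0.18, adjusted p = 7.1e-05). At 36 hpf it measured −1.37, −2.62 and −2.01 in MO and −0.93, −1.04 and −1.08 in MP. These did not overlap either, but the difference of −0.99 ± 0.33 did not pass the test (adjusted p = 0.13) and was −0.68 ± 0.24 without MO 36 hpf replicate 2 (adjusted p = 0.13). A second probe differed by −2.07 at 24 hpf and −1.14 at 36 hpf.

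uox encodes urate oxidase, which degrades the uric acid that xanthine dehydrogenase makes. In 24 hpf embryos it measured 4.24, 3.68 and 4.16 in MO and 0.19, −0.11 and 0.87 in MP. Every MO array lay well above every MP array, and uox was 13.1-fold higher in MO (3.71 ± 0.24, adjusted p = 9.9e-06). In 36 hpf embryos it measured 0.84, 3.70 and 0.89 in MO and −2.66, −2.52 and −1.95 in MP. The groups did not overlap, MO replicate 2 lay 2.84 above the mean of the other MO arrays, and the difference was 4.19 ± 0.71 (18.2-fold, adjusted p = 0.022) with it and 3.24 ± 0.25 without it (adjusted p = 0.00069). Leaving out MO 36 hpf replicate 3 or any MP array at 36 hpf put the adjusted p at 0.050 to 0.10. Those fits called 19 to 94 of all genes, against 632 in the main fit. A second uox probe differed by 4.18 at both ages, with adjusted p over all probes of 1.6e-05 and 0.036. The order of the means was MO at 24 hpf, MO at 36 hpf, MP at 24 hpf and MP at 36 hpf, and the second of these overlapped both its neighbours.

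Of the enzymes that build IMP, ppat encodes the amidotransferase of the committing step. On the arrays of 24 hpf embryos it measured 2.08, 1.94 and 2.15 in MO and 1.94, 1.87 and 1.73 in MP, and at 36 hpf 1.65, 1.76 and 1.35 in MO and 1.23, 0.84 and 1.28 in MP. At 24 hpf MO replicate 2 and MP replicate 1 met at 1.94, and the difference was 0.21 ± 0.10 (adjusted p = 0.10). At 36 hpf all MO arrays were higher, by 0.47 ± 0.21 (adjusted p = 0.24). A second ppat probe was higher in MO at 24 hpf by 0.52 ± 0.11 (adjusted p over all probes 0.0060), so the probes of ppat disagree on the call at that age.

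paics encodes the bifunctional enzyme that adds the carboxyl group and the aspartate of the growing ring. In the younger embryos it measured 1.63, 1.44 and 1.47 in MO and 0.39, −0.03 and 0.55 in MP. The groups were apart, and paics was 2.31-fold higher in MO (1.21 ± 0.15, adjusted p = 0.00023). In 36 hpf embryos it measured 0.04, 1.09 and 0.33 in MO and −0.50, −0.12 and −0.25 in MP, and the difference of 0.77 ± 0.29 did not pass the test (adjusted p = 0.18), nor did the 0.47 ± 0.20 left without MO 36 hpf replicate 2 (adjusted p = 0.18). A second probe differed by 1.16 and 0.91. In RefSeq's annotation of the assembly GRCz12tu, paics and ppat overlap on chromosome 20. The arrays were designed on another build, so no coordinates are given.

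gart encodes a trifunctional enzyme that acts at several early steps of the ring. In 24 hpf embryos it measured 4.75, 4.98 and 4.92 in MO and 5.02, 5.27 and 5.16 in MP. The MO arrays were all lower, by 0.04 from the highest of them to the lowest MP array, and the difference of −0.27 ± 0.10 lay just past the threshold (adjusted p = 0.046). At 36 hpf gart measured 4.73, 5.01 and 4.80 in MO and 3.73, 4.13 and 4.01 in MP, so the MO arrays were now all higher, by 0.89 ± 0.19 (1.85-fold, adjusted p = 0.035). Without MO 36 hpf replicate 2 this was 0.80 ± 0.17 (adjusted p = 0.022), but leaving out MO 36 hpf replicate 3 or any MP array at that age put the adjusted p at 0.10 to 0.16. The latter fits called 19 to 94 of all genes, against 632 in the main fit. The call at 24 hpf was lost in 16 of 23 other ways of processing the arrays, and a second gart probe differed there by 0.08 (adjusted p over all probes 0.43) and at 36 hpf by 0.50 (adjusted p 0.26).

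adsl encodes adenylosuccinate lyase, which acts both on the way to IMP and from IMP to AMP. On the arrays of 24 hpf embryos it measured 3.53, 3.46 and 3.52 in MO and 3.83, 3.82 and 3.82 in MP. This was a small difference between tight groups, −0.32 ± 0.07 (adjusted p = 0.0056). At 36 hpf adsl measured 4.26, 3.89 and 4.03 in MO and 3.97, 4.10 and 4.03 in MP, with MP inside the range of MO (0.03 ± 0.17, adjusted p = 0.94).

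Each slide held 1 MO and 1 MP array of the same age, so the groups could also be compared within a slide. On all 3 slides at 24 hpf and all 3 at 36 hpf, MO was below MP for gch2, xdh and pnp4a and above it for uox and paics. For these genes and gart the values of MO and MP did not overlap at either age. That fixes the sign on every slide however the arrays are paired, so the slides add only the sizes of the differences. For gch2 the differences within a slide ran from −2.05 to −1.52 at 24 hpf and from −2.19 to −0.38 at 36 hpf, and for uox from 3.29 to 4.35 and from 2.84 to 6.36. gart was below MP on all 3 slides at 24 hpf (−0.52 to −0.04) and above it on all 3 at 36 hpf (0.60 to 1.28). The widest values at 36 hpf for gch2, xdh, pnp4a, uox, paics, gart and pts came from the slide with MO replicate 2.

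**Figure D2:**
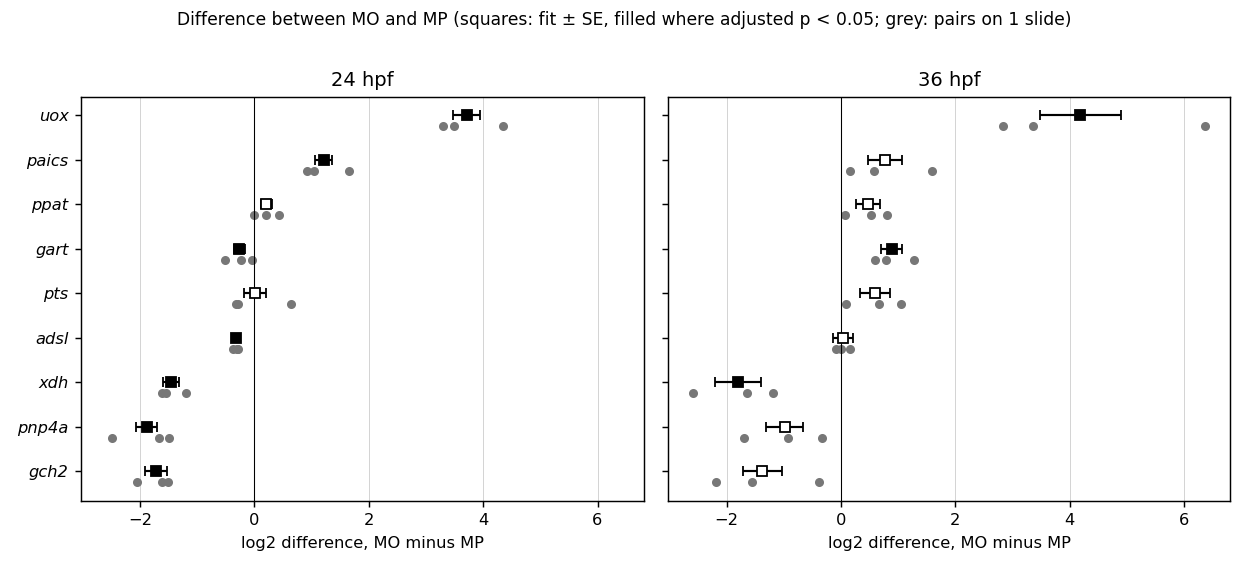
Log2 difference MO minus MP (horizontal axis) for each gene at 24 hpf (left) and 36 hpf (right). Squares are the fitted difference with its SE, filled where the adjusted p was under 0.05 (7 genes at 24 hpf, 3 at 36 hpf), and grey points are the 3 differences within a slide; the square of gart lies at −0.27 on the left and 0.89 on the right.

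The treatment by time interaction, fitted over all 12 arrays, asked whether the difference between MO and MP itself differed between the ages. It passed the threshold for gart among the 9 genes (1.15 ± 0.20, adjusted p = 0.015), against 1.56% of 10390 genes tested. For uox, gch2, xdh and paics it was 0.48, 0.35, −0.35 and −0.44, with adjusted p of 0.60 to 0.85, and for pnp4a it was 0.90 ± 0.39 (adjusted p = 0.30). The second gart probe gave 0.42 ± 0.22 (adjusted p over all probes 0.44), and the adjusted p of the main gart probe was 0.052 to 0.057 without MO 24 hpf replicate 1, MP 24 hpf replicate 2 or MP 24 hpf replicate 3. In that order these fits called 74, 60 and 69 of all genes, against 162 in the main fit. Without MO 36 hpf replicate 2, 3 of the 9 genes passed (gart, pnp4a at 1.21 and adsl at 0.44), against 15.7% of all genes.

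How the genes moved from 24 to 36 hpf was compared within each treatment. These comparisons use the same arrays as those above, and the ages were scanned on different days on different slides, so that age and scan day cannot be told apart. In MP 7 of the 9 genes differed between the ages, 2 higher and 5 lower at 36 hpf, against 30.5% of 10301 genes tested (14.4% higher and 16.1% lower), and the values of the ages did not overlap for 8 of the 9, against 48.5% of all genes. gch2 and xdh were higher at 36 hpf, by 0.96 ± 0.23 and 1.28 ± 0.16 (adjusted p = 0.014 and 0.00083). uox was lower by 6.47-fold (−2.69 ± 0.28, adjusted p = 0.00035), and of the enzymes that build IMP, gart (−1.19 ± 0.14), ppat (−0.73 ± 0.15) and paics (−0.60 ± 0.18) were lower too, as was pts (−1.14 ± 0.21), with adjusted p of 0.00059 to 0.037. adsl (0.21 ± 0.10, adjusted p = 0.14) and pnp4a (−0.19 ± 0.18, adjusted p = 0.45) did not pass the test.

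The probes of pnp4a disagree on the change with age. Its second, dimmer probe was higher at 36 than at 24 hpf, by 1.32 ± 0.17 in MP and 2.25 ± 0.40 in MO (adjusted p over all probes 0.0014 and 0.020), while the brighter probe gave −0.19 in MP and 0.71 in MO. On the difference between MO and MP the 2 probes gave the same sign at both ages. For paics, ppat, uox and gch2 the second probe changed in the same direction as the first from 24 to 36 hpf in MP, by −0.94, −0.88, −2.66 and 1.08, and for gart by −0.43.

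In MO only gch2 passed the threshold between the ages (1.32 ± 0.33, adjusted p = 0.046), against 11.9% of 10211 genes tested (6.08% higher and 5.83% lower), and the values of the ages did not overlap for 5 of the 9, against 39.2% of all genes. adsl at 0.56 ± 0.15 and paics at −1.03 ± 0.27 lay near it (adjusted p = 0.0504 and 0.052), uox was at −2.22 ± 0.73, and gart at −0.04 ± 0.15 (adjusted p = 0.86). Without MO 36 hpf replicate 2, 8 of the 9 genes passed, against 49.8% of all genes, and gart at −0.13 was the exception. Among the 8 were gch2 at 1.66, xdh at 1.38 and pnp4a at 1.02, and uox at −3.16, paics at −1.33, pts at −0.71 and ppat at −0.56. Without any other single MO array, none of the 9 passed. Those fits called 37, 22 and 63 of 10232 to 10276 genes without MO 24 hpf replicates 1 to 3. Without MO 36 hpf replicates 1 and 3 they called 945 of 10188 and 165 of 10186, against 1216 in the main fit.

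**Figure D3:**
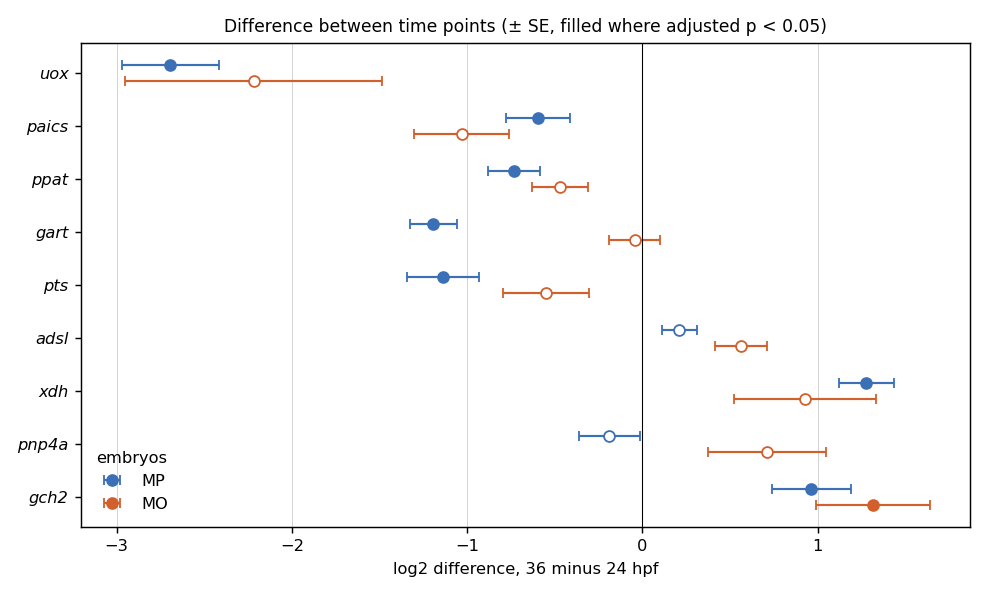
Log2 difference 36 minus 24 hpf (horizontal axis) for each gene in MP (blue) and MO (orange), with the SE, from 3 arrays at each age. Filled points had an adjusted p under 0.05, and the wide bar of uox in MO, ± 0.73, includes MO 36 hpf replicate 2.

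The rest of the pathways was described by lists of known enzymes, drawn up with earlier results of these arrays known and without the 9 genes. Over all genes tested at 24 hpf 48.3% were called, 24.3% higher and 24% lower. At 36 hpf 6.39% were called, 1.92% higher and 4.47% lower. The counts of each list below are read against these shares. Among 8 other enzymes of de novo purine synthesis and of the steps from IMP to AMP and GMP, 1 was higher and 5 were lower in MO at 24 hpf, with a median log2 difference of −0.40 against 0.01 over all genes. pfas, the formylglycinamidine synthase that acts between steps catalyzed by gart, was higher by 0.64 ± 0.11 (adjusted p = 0.0013). The largest falls were in adss2, an adenylosuccinate synthase, at −0.82 ± 0.14, and in impdh1b, an IMP dehydrogenase, at −0.59 ± 0.10. At 36 hpf 1 of the 8 passed the test, adss1, another adenylosuccinate synthase, at −1.38 ± 0.28 (adjusted p = 0.033), and the median was −0.16.

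Of the other salvage and breakdown enzymes 19 were tested at 24 hpf, of which 6 were higher and 6 lower in MO, against 24.3% and 24% of all genes. The median was −0.03. The largest rises were in pnp5b, a purine nucleoside phosphorylase (1.70 ± 0.24), and ampd1, the AMP deaminase known from muscle (1.36 ± 0.20). The largest falls were in pnp6, another nucleoside phosphorylase (−1.28 ± 0.15), and hprt1l, of the phosphoribosyltransferase family that salvages hypoxanthine (−0.80 ± 0.14). pnp4a, pnp5b and pnp6 belong to 1 gene family, and their probes did not change in the same direction. At 36 hpf 1 of 20 passed, allc, which encodes allantoicase of the pathway beyond urate. It was not well above background on any MO array at that age and was tested because all MP arrays were. MO lay at least 1.44-fold under MP, a bound set by the dimmest probes well above background on those arrays. The limma adjusted p of 0.025 belongs to the measured difference of −1.99, not to that bound.

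Of 11 other genes of pteridine and tetrahydrobiopterin metabolism, 8 were lower and 0 higher in MO at 24 hpf, against 24% and 24.3% of all genes. The median was −0.70. The largest falls were in sprb, a sepiapterin reductase (−2.45 ± 0.29, adjusted p = 0.00021), and pah, the phenylalanine hydroxylase that uses tetrahydrobiopterin (−1.98 ± 0.14, adjusted p = 1.5e-05). sprb was well above background on 2 of 3 MO arrays at 24 hpf and on 1 of 3 at 36 hpf. It was tested because all MP arrays were above background, and is counted among the 8 lower at 24 hpf. qdpra, which recycles the cofactor, was at −1.07, and the tyrosine and tryptophan hydroxylases th and tph2, which use it in neurons, at −1.05 and −0.86. gchfr, pcbd1 and dhfr lay between −0.70 and −0.67, and spra, mycbp2 and qdprb.1 did not pass. The mean log2 level of 4 neural markers was also lower in MO, at 0.72 to 0.85 against 1.32 to 1.66 in MP at 24 hpf and 1.32 to 1.60 against 1.75 to 2.31 at 36 hpf. That of 3 lens markers was −4.37 to −3.46 against −0.87 to −0.32 at 24 hpf and −3.09 to −0.05 against 2.64 to 3.16 at 36 hpf. The level of 4 muscle markers overlapped at both ages. It was 3.88 to 4.10 in MO and 3.83 to 4.03 in MP at 24 hpf, with medians of 3.97 and 3.76 at 36 hpf. The level of 3 red cell markers was lower in MO at 24 hpf, at 1.40 to 1.68 against 1.77 to 1.95. At 36 hpf it overlapped, with medians of 0.88 in MO and −0.64 in MP. The part of these tissue markers in the pteridine list was not tested. At 36 hpf none of its 10 genes passed the limma test, with a median of −0.61 against 0.03 over all genes. sprb stood at −1.61 ± 0.57 (adjusted p = 0.15), and at −0.96 ± 0.36 without MO 36 hpf replicate 2 (adjusted p = 0.14). At an unadjusted limma p under 0.05 it would be 6 of the 10, against 21.3% of all genes, and the methods' t-test after adjustment gave 0 for every list at this age and 2 genes in all.

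The folate enzymes that supply the ring with carbon units gave 2 higher and 3 lower of 10 at 24 hpf, among the latter tyms, the thymidylate synthase, at −0.54 ± 0.09. At 36 hpf mthfd1b was the 1 of 10 that passed (1.04 ± 0.20, adjusted p = 0.028). Of 8 genes of pyrimidine synthesis 0 were higher and 4 lower at 24 hpf, led by rrm1 and uck2b at −0.66 and −0.62, and none of 8 passed at 36 hpf in limma, also at an unadjusted p under 0.05. Called in either direction at 24 hpf, the folate and pyrimidine counts lie near the 48.3% of all genes.

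**Figure D4:**
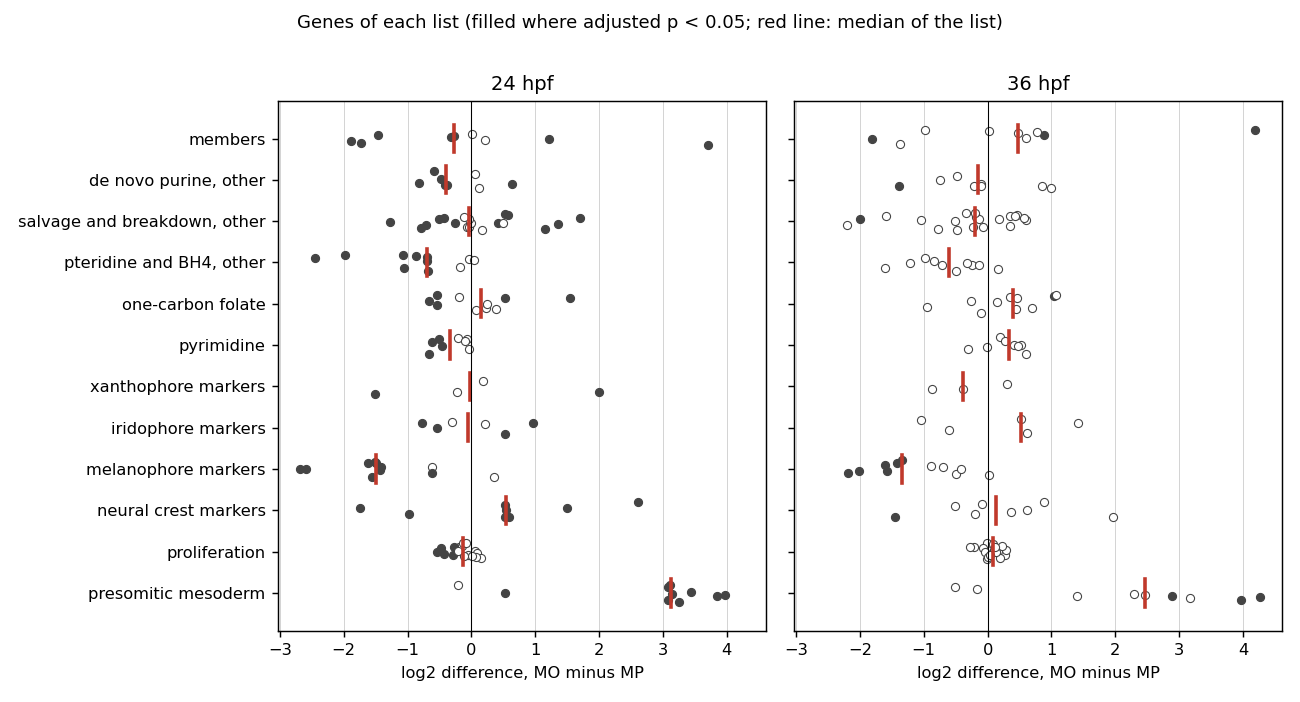
Log2 difference MO minus MP (horizontal axis) of the 9 genes (top row) and of every tested gene of each list at 24 hpf (left) and 36 hpf (right). Filled points had an adjusted p under 0.05 and the red line is the median of a list; the pteridine and tetrahydrobiopterin list lies at −0.70 and −0.61, the melanophore markers at −1.502 and −1.34, and the presomitic mesoderm genes at 3.12 and 2.46.

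Markers of pigment cells, neural crest and other sources of these transcripts were read on the same arrays. Of 11 melanophore markers, 9 at 24 hpf and 6 at 36 hpf were lower in MO and none higher, against 24% and 4.47% of all genes lower. tyrp1b, a melanin enzyme, was at −2.58 ± 0.09 and −2.18 ± 0.52, the latter −1.51 ± 0.19 without MO 36 hpf replicate 2. mc1r, the melanocortin receptor, was not well above background on any MO array. It is counted among the 9 and the 6, and was tested because all MP arrays were above background. It was at least 1.87-fold and 1.44-fold lower in MO. The limma adjusted p of 0.0010 and 0.041 belong to the measured differences of −2.68 and −2.02, not to these bounds. Over the 10 of these markers above background on all arrays, the mean log2 level was −1.67 to −1.56 in MO and −0.59 to −0.23 in MP at 24 hpf, and −1.31 to −0.54 and −0.02 to 0.34 at 36 hpf. These levels moved in the same direction as gch2, xdh and pnp4a, and their part in those results was not tested.

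The markers of the cells that use pteridines and purine crystals were mixed. Of 4 xanthophore markers tested at 24 hpf, slc2a15b, a sugar transporter needed by xanthophores, was lower (−1.51 ± 0.10), scarb1, a scavenger receptor used in carotenoid uptake, was higher (2.01 ± 0.22), and the other two did not pass. Of 6 iridophore markers 2 were higher and 2 lower, with tfec at 0.96 ± 0.20 and ednrba at −0.77 ± 0.24, and at 36 hpf none of 3 xanthophore and none of 5 iridophore markers passed in limma (1 and 3 at an unadjusted p under 0.05, against 21.3% of all genes). The mean log2 level of the 3 xanthophore markers above background on all arrays was −2.02 to −1.82 in MO and −2.23 to −1.88 in MP at 24 hpf. That of the 4 iridophore markers was −1.09 to −0.84 in MO and −1.04 to −0.75 in MP. The groups overlapped in both means, and both lists hold markers that changed in opposite directions.

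Of 8 neural crest markers 6 were higher and 2 lower in MO at 24 hpf, against 24.3% and 24% of all genes. snai1b was at 2.60 ± 0.13 and sox9b at 1.495 ± 0.20, while tfap2e, which marks the crest that forms pigment cells, was at −1.75 ± 0.10 and was the 1 of 8 that passed at 36 hpf (−1.45 ± 0.33). Presomitic mesoderm genes, which mark an earlier stage of the trunk, were higher in MO for 9 of 10 at 24 hpf and 3 of 9 at 36 hpf. Of the 10, 6 were well above background on all 12 arrays. At least 1 of the 3 was above it on only 2 of 3 MP arrays at 36 hpf. It was tested because all MO arrays were. Over all genes 24.3% and 1.92% were higher. tbx16 was at 3.96 ± 0.09 at 24 hpf. The mean log2 level of 6 presomitic mesoderm genes was 1.80 to 1.94 in MO and −0.66 to −0.49 in MP at 24 hpf, and at 36 hpf it was −0.24, 1.88 and −0.41 in MO replicates 1 to 3 and −1.65 to −1.28 in MP. MO 36 hpf replicate 2, which was set apart in uox, was thus set apart in these genes too. Without it, a check added after seeing the data, 11.3% of all genes were called at 36 hpf, 472 higher and 648 lower of 9869. In that fit 5 of the 9 presomitic mesoderm genes were higher and 6 of 11 melanophore markers, the same count as before, were lower. Lower too were 2 of 8 neural crest markers, 1 of 10 pteridine genes and 2 of 20 salvage genes. No pteridine or salvage gene was higher, so counted in either direction these 2 lists lie near the 11.3% of all genes. Higher were 2 of 8 pyrimidine genes and 1 of 10 folate enzymes, and 1 of 8 other de novo enzymes was higher and 1 lower. No xanthophore, iridophore or proliferation gene passed. Proliferation genes, which are often taken with purine synthesis, were lower for 5 of 17 at 24 hpf, against 24% of all genes (median −0.14), and none of 17 passed at 36 hpf in limma, also at an unadjusted p under 0.05. The part of these markers in the values of uox and paics was not tested.

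The genes nearest to gch2 and paics over the 12 arrays were found by centring each of 9845 other genes on its own mean and taking the root mean square distance, a description that carries no test. Nearest to gch2 were camk2a (0.161), slc24a5 (0.163), fmoda (0.177), aqp1a.1 (0.192) and dct (0.205), against a median distance of 1.09. slc24a5 and dct are both on the list of melanophore markers. Nearest to paics were soat1 (0.138), itga5 (0.183), natd1 (0.186), gfpt1 (0.192) and bmp6 (0.195), against a median of 0.771. Of the pairs among the 9 genes the nearest were ppat with gart (0.307) and gch2 with xdh (0.327), and uox with xdh (3.47) lay farthest apart.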

How the data were processed

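The authors deposited one-color Agilent scanner files, with an intensity for each spot that Feature Extraction 10.5.1.1 had corrected for background, and a table of their own scaled signal values, described as normalized in GeneSpring and used as an alternative. From the scanner files, intensities under 0.05 were raised to 0.05, outlier spots were dropped, and values were scaled to the array's median over the 19114 probes that exceeded 50 throughout the 12 arrays, a reading of the methods' control set. Of 43603 probes, 15768 were matched to 10914 named genes. Testing required a probe well above background on every array of 1 group or more. Groups were compared with limma 3.58.1 in R 4.3.3 (lmFit, eBayes with a trend), by time point as in the methods, with p adjusted by Benjamini-Hochberg (threshold 0.05). The code was also run on simulated arrays with independent noise and the same spread in every group. These hold no outlying array such as MO 36 hpf replicate 2, so they cannot show how the fits at 36 hpf behave. The number of arrays limits the precision. The members and lists were chosen with earlier results of these data known. The text names, from each list and age, up to 2 changed genes with the largest rise and 2 with the largest fall, and the 5 genes nearest to gch2 and to paics; further genes of the pteridine list were named after their values were seen. A gene that this rule names is not reported here. Alternatives were other scalings, background corrections, floors, filters, probes of a gene, tests and blocks, the authors' table, and fits lacking 1 array. Whether replicate numbers pair the samples could not be told, and the main fits took the samples as unpaired. The sample titled MO 36 hpf replicate 3 bears another number in its description, and the number of the title was used.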

Additional observations from a re-analysis of the deposited data

Results flagged for a closer look

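The difference between MO and MP in gart changed between the ages by 1.15 on the log2 scale (interaction over 12 arrays, limma adjusted p = 0.0147), from −0.27 at 24 hpf to 0.89 at 36 hpf. All MO arrays lay below all MP arrays at 24 hpf and above them at 36 hpf, which fixes the sign within every slide. With the slide as a block the interaction did not pass the threshold. The second gart probe gave 0.42 (adjusted p over all probes 0.44). It went from 0.08 at 24 hpf to 0.50 at 36 hpf, so its sign did not turn.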

How the results depend on the processing

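Across 23 alternatives at each age, the sign of MO minus MP stayed as reported for gch2, xdh, pnp4a, uox, paics and gart. None of these alternatives took a second probe alone, and the second gart probe had the other sign at 24 hpf (0.08). Scaling to the positive control spots turned the sign of ppat and pts at both ages (−0.25 and −0.45 at 24 hpf, −0.27 and −0.14 at 36 hpf) and of adsl at 36 hpf (−0.71). Those spots were dim, with a median intensity of 4.49 to 14.9 on an array, against 342 to 1753 for the probes of the main scaling. The part of this dimness in the signs and calls under that scaling was not tested. The differences nearest to 0, of pts at 24 hpf and adsl at 36 hpf, each turned in 5 of the 23. Scaling to the control spots also moved the median of all genes by −0.45 at 24 hpf and −0.71 at 36 hpf, and gave 509 higher and 2226 lower genes at 24 hpf, against 2517 and 2485, and 1 and 80 at 36 hpf, against 190 and 442. The values that turned lay at or close to that shifted median, or above it. The probes above 50 on all 12 arrays exclude genes that were dim in any group, and the part of this in the scaling was not tested.

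Of the 9 genes, 7 were called at 24 hpf, and 4 with scaling to the control spots. Of all 10352 genes these fits called 5002 and 2735. At 36 hpf 3 were called, and 0 with that scaling, the floor after scaling or the methods' t-test after adjustment, 1 with the slide as a block, 6 in 1 fit of the 12 arrays together and 0 to 5 with 1 array left out. Of all 9887 genes 632 were called, 81 with that scaling, 253 with the floor after scaling and 2 with the adjusted t-test. The slide block called 151, the single fit 1877, and the fits lacking 1 array 19 to 1120 of 9869 to 10170 genes. The interaction called 1, and 0 with the control spots, the mean of all probes or the slide as a block, and 0 to 3 with 1 array left out. Over all genes the interaction called 162, and 57 with the control spots. It called 148 with the mean of all probes, 31 with the slide block, and 60 to 1629 with 1 array left out. From 24 to 36 hpf in MP 7 were called and 2 with the control spots, and pnp4a turned to 0.57 (adjusted p = 0.026) with the mean of its probes. Of all 10301 genes 3142 were called in MP, and 613 with the control spots. In MO 1 was called, 2 at the 75th percentile, with normexp, with probes above background on every array, with the mean of all probes or with every probe, 3 with no filter, 0 with the control spots, without the trend or with the replicate block, and 0 to 8 with 1 array left out. Over all genes 1216 were called in MO, and 998 to 1228 under the settings that gave 2, other than every probe. No filter gave 1464, the control spots 21, no trend 1194, the replicate block 117, and fits lacking 1 array 22 to 5072. The cause was not tested. The slide block could not be fitted between ages, which share no slide.

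Over all genes at 36 hpf 632 were called, 224 with the replicate block, 151 with the slide block, 1877 in the single fit and 2 with the adjusted t-test. At 24 hpf 5002 of 10352 genes were called, and 2218 in the single fit. Where every probe was tested, 7024 were higher and 7560 lower of 35338 probes. Between ages 1216 were called in MO, 117 with the replicate block and 5072 without MO 36 hpf replicate 2. Deviations of MO and MP arrays of an age that share a number correlated at −0.26 to 0.15, and those with different numbers at −0.23 to 0.19. With 3 arrays in a group, whose deviations sum to 0, this cannot show whether the number is a pairing.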
